A study of Mus musculus with 24 samples.

Results

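The mitochondrially encoded genes are the 37 genes carried on the mitochondrial DNA, and they were followed here in mouse embryonic stem (ES) cells of 6 genotypes. The members were all entries whose gene symbol starts with mt-, which gave 37 of 37310 gene entries in each of 2 deposited tables. They comprise 13 messenger RNA genes, 2 ribosomal RNA genes and 22 transfer RNA genes. The series measured total RNA, with ribosomal RNA removed, from ES cells grown without feeder cells in serum and LIF. Beside wild-type cells (WT) there were cells without Smchd1, a chromatin protein of the SMC family (Smchd1 KO), without Dux, a transcription factor (Dux KO), and without either gene (Double KO). Tet TKO cells lacked Tet1, Tet2 and Tet3, which oxidise methylated cytosine, and quad KO cells lacked Smchd1 in addition to these. Each genotype had 3 replicates named as biological, and those of WT and Smchd1 KO were run 2 times each as technical repeats, for a total of 24 libraries. Strain, and whether the replicates of a knockout were separate clones or cultures of 1 clone, are not given in the sources used here, so the p-values measure the spread between these samples. One table, called the first here, has the samples of WT and of the Smchd1, Dux and Double knockouts, and the second has those of Tet TKO and quad KO. The tables had been scaled separately, so every comparison stayed within 1 table.

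Mitochondrial DNA is a small circle transcribed from both strands into long precursors. The transfer RNAs lie between most of the other genes, and their excision releases the messenger and ribosomal RNAs. The messenger RNAs encode core subunits of respiratory complexes I, III and IV and of the ATP synthase (complex V), and all other subunits of these complexes, and all of complex II, come from nuclear genes. Copies of mitochondrial DNA have also been inserted into nuclear chromosomes during evolution, where they are annotated as pseudogenes.

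A stretch of 11 neighbouring genes between mt-Co1 and mt-Nd4 had almost no reads. They are mt-Ts1, mt-Td, mt-Co2, mt-Tk, mt-Atp8, mt-Atp6, mt-Co3, mt-Tg, mt-Nd3, mt-Tr and mt-Nd4l, that is 6 messenger RNA and 5 transfer RNA genes. Together they held 8 reads over all 24 libraries, out of 15310859 reads for all members. The 6 messenger RNAs encode subunits 2 and 3 of cytochrome c oxidase (mt-Co2, mt-Co3), ATP synthase subunits 8 and 6 (mt-Atp8, mt-Atp6) and complex I subunits 3 and 4L (mt-Nd3, mt-Nd4l). Of these 6, 5 had a near-identical nuclear copy among the annotated transcripts of GENCODE M21, whose build is not the mm9 build of the deposited data and which was therefore used for sequence and gene order only. The copy Gm28661 matched mt-Co2 at 681 of 681 bases, Gm10925 matched mt-Atp6 at 678 of 678, and Gm28437 matched mt-Co3 at 783 of 783. The copy Gm10222 matched mt-Nd4l at 294 of 294 bases, and Gm28438 matched mt-Nd3 at 344 of 345, with the substitution T3C (mitochondrial base first, positions counted from 1 at the first base of the gene). The sequences of mt-Nd4l, of the first 60 bases of mt-Nd3 and of its copy, and of the place in mt-Nd4 where its copy ends are printed because they show how little separates member from copy. In mt-Nd4l the lower case is the part identical to Gm10222 and the capitals are the remaining bases; in mt-Nd3 and Gm28438 the capital is the differing base; in mt-Nd4 (bases 837 to 916) the capitals start where the identical copy Gm28439 (bases 837 to 876 shown) ends.
mt-Nd4l: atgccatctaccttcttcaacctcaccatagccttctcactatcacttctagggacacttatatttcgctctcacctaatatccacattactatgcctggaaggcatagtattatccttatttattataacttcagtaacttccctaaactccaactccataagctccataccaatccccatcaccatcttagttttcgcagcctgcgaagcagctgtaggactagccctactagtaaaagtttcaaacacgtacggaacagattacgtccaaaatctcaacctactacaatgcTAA
mt-Nd3: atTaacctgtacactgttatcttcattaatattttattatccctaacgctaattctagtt
Gm28438: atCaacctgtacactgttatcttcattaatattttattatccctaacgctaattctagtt
mt-Nd4: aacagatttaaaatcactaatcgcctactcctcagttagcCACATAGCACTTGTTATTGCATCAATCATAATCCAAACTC
Gm28439: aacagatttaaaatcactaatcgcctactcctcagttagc

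All 50-base words of each member were looked up in the annotated nuclear transcripts, on both strands. The share found there was 100% in mt-Co2, 99.9% in mt-Co3, 99.5% in mt-Atp6, 98.8% in mt-Nd4l and 98.0% in mt-Nd3. It was 62.2% in mt-Nd4 and 51.1% in mt-Co1, which both had reads, 8.19% in mt-Nd2, 7.61% in mt-Nd5 and 1.04% in mt-Rnr2. It was 0% in mt-Nd1, mt-Nd6, mt-Cytb and mt-Rnr1. The measured level of mt-Nd4 in WT, per kilobase of gene, was 1291 CPM (counts per 1e6 counts of the library). On the same scale mt-Co1 was at 4767, mt-Nd1 at 4999.5, mt-Cytb at 4252, mt-Nd2 at 2235, mt-Nd5 at 1839 and mt-Nd6 at 542. The level of mt-Nd4 thus lay within the range of messenger RNAs with shares of 0% to 8.19%. The part of shared words in these levels was not tested. For mt-Atp8 and the 5 transfer RNAs of the stretch the share was also 0%, and they too had no reads. The lookup covered annotated transcripts only, so it could not show a copy in nuclear sequence that is not annotated. A further 3 transfer RNA genes, mt-Th, mt-Ts2 and mt-Tl2, which follow mt-Nd4, held 1 read in all 24 libraries, also with a share of 0%. How the authors treated reads that match more than 1 place is not given in the sources used here, and its part in these zeros was not tested. The 8 reads are therefore given as values of these tables and not as RNA levels in the cells.

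**Figure D1:**
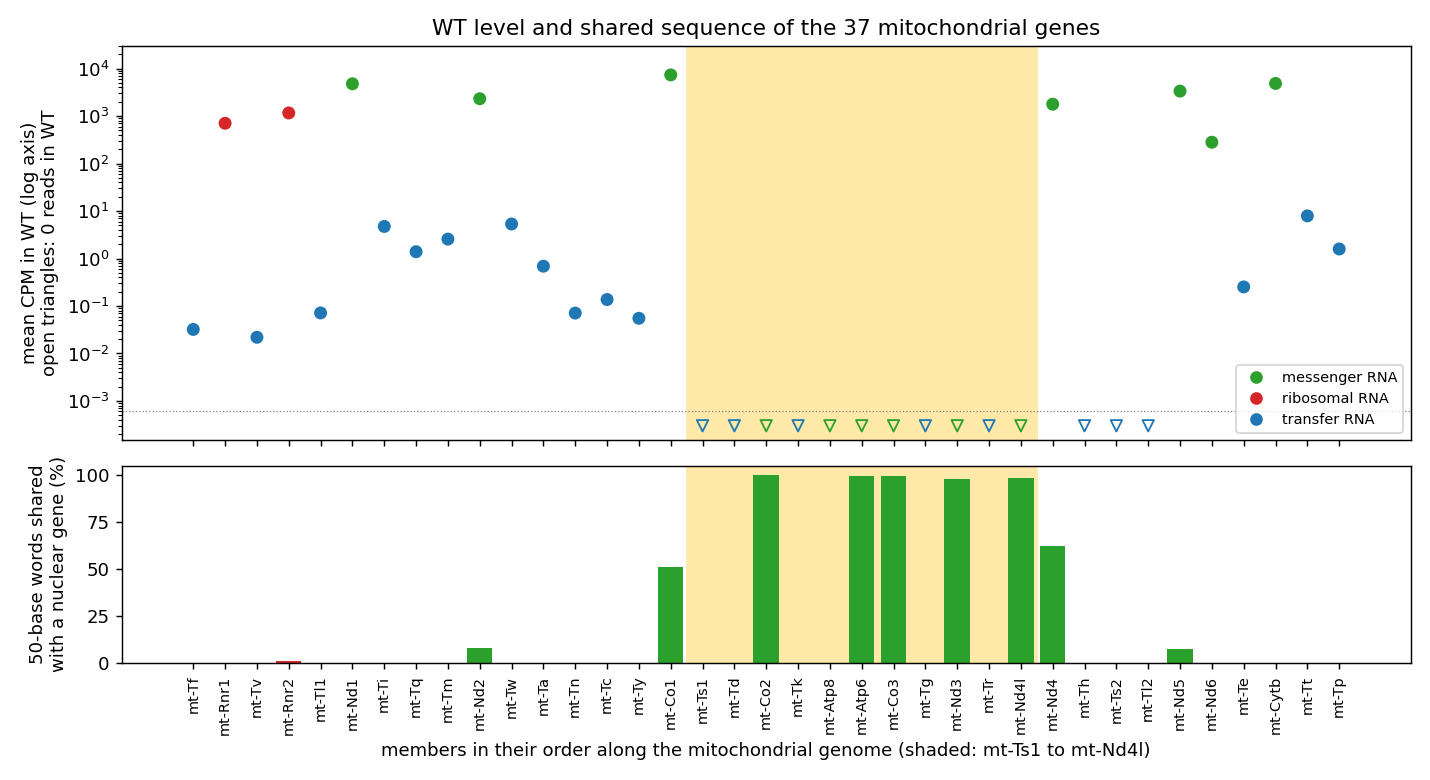
The 37 members in their order along the mitochondrial genome. The upper panel shows the mean WT level in CPM on a log axis, with open triangles for genes with 0 WT reads, and the lower panel shows the percent of 50-base words also found in an annotated nuclear gene. All 11 members of the shaded stretch have 0 WT reads, and 5 of its 6 messenger RNA genes share 98.0% to 100% of their words.

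Those nuclear copies that are entries of the tables had low values. Of the 15 nuclear genes sharing a word with a member, 7 were entries of the tables. Gm28661, Gm28437, Gm28438 and Gm28439, named above, were not among these 7. The highest were Gm13340, a copy of mt-Co1, and Gm13341, a copy of mt-Co2. Gm13341 was at 2.46 to 2.92 CPM in the deeper WT libraries, 3.15 to 4.18 in Dux KO and 0.933 to 1.56 in Tet TKO. Gm10222, the copy of mt-Nd4l, stayed between 0 and 0.755 CPM in all libraries. The copies held in the tables were thus far below the measured messenger RNA members. As for the members, the treatment of reads that match more than 1 place is not known, so these are values of the tables only.

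Depth, in units of 1e6 gene reads a library, was 11.4 to 74.4 in the first table and 27.3 to 34.6 in the other. The Smchd1 level was 203 to 207 CPM in WT and 174 to 213 in Dux KO, against 46.2 to 76.5 in Smchd1 KO and 71.0 to 87.9 in Double KO. In Tet TKO it was 151 to 161 CPM, and quad KO had 12.2 to 40.02. Dux was 0.0410 to 0.141 CPM in WT and 0 to 0.447 in Dux KO, so few reads that it does not check the Dux labels. Tet1 was 270 to 276 CPM in Tet TKO, and quad KO had 281 to 293. Tet2 (329 to 341 and 232 to 237 CPM) and Tet3 (43.0 to 46.0 and 43.7 to 46.8 CPM) had reads in both, and which exons were removed is not given in the sources used here. All 8 ES cell markers looked up were present in every genotype, with a summed level of 2291 CPM (the lowest Double KO sample) to 4595 CPM (the highest Smchd1 KO sample). Members of the fibroblast, endoderm and trophoblast lists summed to 10.8 to 60.95, 17.9 to 204 and 8.43 to 98.55 CPM.

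The members took 2.42% to 2.77% of the deposited total in the WT libraries and 1.97% to 2.49% in those of Smchd1 KO. Dux KO had 3.34% to 3.95% and Double KO 2.51% to 3.29%. In the second table their share was 1.27% to 1.51% for Tet TKO and 1.57% to 1.82% for quad KO. Dux KO was the genotype with the highest share and did not overlap any other genotype of its table, and quad KO did not overlap Tet TKO. The share includes the 2 ribosomal RNAs, which differed between runs of 1 sample, as given below. They summed to 2023, 3634 and 12672 CPM in Dux KO and to 1375, 1444 and 3039 in Double KO. In bulk RNA, fewer mitochondrial genomes, fewer cells of 1 kind and less RNA per genome cannot be told apart. The 13 messenger RNA members summed to 24307, 24594 and 25351 CPM in the 3 WT samples and to 18671, 22008 and 22586 in Smchd1 KO. Their sum was 26853, 27530 and 36838 CPM in Dux KO and 24265, 24880 and 28790 in Double KO. It was 12336, 12407 and 14823 CPM in Tet TKO, and 15116, 15345 and 17517 in quad KO. In these messenger RNA sums all Smchd1 KO samples were thus under all WT samples, and all Dux KO samples were over all WT samples. Double KO overlapped both WT and Dux KO, and all quad KO samples were over all Tet TKO samples.

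Of the 13 messenger RNA genes, 7 passed the filter of 0.5 CPM in at least 3 samples, and so did both ribosomal RNA genes. Of the 22 transfer RNA genes, 8 passed in the table with WT and 7 in the other. The 7 messenger RNAs were the complex I subunits mt-Nd1, mt-Nd2, mt-Nd4, mt-Nd5 and mt-Nd6, the cytochrome c oxidase subunit mt-Co1 and the complex III subunit mt-Cytb (cytochrome b). The change of each was estimated with limma on log2(CPM + 0.5), so that a log2 change is on that scale, and p-values were adjusted by the Benjamini-Hochberg method over all genes tested. A gene was called at an adjusted p under 0.05.

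With Smchd1 lost in otherwise wild-type cells, none of the 17 members tested was called by limma, where 0.889% of all 16200 genes were. At an unadjusted p under 0.05 there were 3 members, mt-Nd4, mt-Nd2 and mt-Cytb, all lower; 16.4% of all genes had such a p, so 3 of 17 is near that share. The levels nevertheless separated: mt-Nd4 was 1733, 1770 and 1836 CPM in WT and 965, 1192 and 1256 in Smchd1 KO. Its log2 change was -0.65 ± 0.20 (SE, n = 3 per genotype; limma adjusted p = 0.154). Cytochrome b (mt-Cytb) was 4787, 4853 and 4954 CPM in WT and 3189, 3521 and 3646 in Smchd1 KO, a log2 change of -0.50 ± 0.20 (limma adjusted p = 0.253).

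The 2 complex I subunits nearest the start of the messenger RNA order gave smaller differences with the same sign. For mt-Nd1 the samples were 4670, 4806 and 4877 CPM in WT and 3184, 3768 and 3896 in Smchd1 KO, and the log2 change was -0.41 ± 0.19 (limma adjusted p = 0.314). For mt-Nd2 they were 2286, 2336 and 2339 CPM and 1408, 1827 and 1900, with a log2 change of -0.45 ± 0.17 (limma adjusted p = 0.220). The level of mt-Nd5 was 3255 to 3426 CPM in WT and 2177 to 3126 in Smchd1 KO. So 5 of the 7 messenger RNAs were lower in every Smchd1 KO sample than in every WT sample, as were 29.6% of all genes tested.

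The other 2 messenger RNAs had the opposite sign. The cytochrome c oxidase subunit mt-Co1 was 7164 to 7633 CPM in WT and 7324 to 8498 in Smchd1 KO, which overlap. The complex I subunit mt-Nd6, the only messenger RNA transcribed from the other strand, was 276, 283 and 285 CPM in WT and 329, 336 and 424 in Smchd1 KO. Its groups did not overlap (28.2% of all genes were higher without overlap), and its log2 change was 0.36 ± 0.21 (limma adjusted p = 0.417). Since mt-Nd5 and mt-Nd6 overlap by 14 bases on opposite strands, and the strand setting of the counting is not given in the sources used here, a few reads may count for either.

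The call of these members rests on how the spread between samples is estimated. The median SD of the 7 messenger RNAs on the log2 scale was 0.032 in WT and 0.201 in Smchd1 KO, but 0.329 in Dux KO and 0.195 in Double KO, and the fit shares 1 spread over the 4 genotypes. With WT and Smchd1 KO alone in the fit, 7 of 17 members were called, 5 lower and 2 higher, and so were 42.3% of all genes. With weights for sample quality 10 of 17 members and 57.4% of all genes were called, so both counts were near the share of all genes. With DESeq2 only mt-Nd4 was called (6.68% of all genes), and with edgeR no member was (1.42%). None of the 4 abundant nuclear noncoding RNAs of the list that were in the tables was called in this comparison, and none of the 8 ES cell markers. The 10 fibroblast markers summed to 18.6 to 19.8 CPM in WT and 26.8 to 53.8 in Smchd1 KO, with no call among the 6 tested and 1 at 0 in Smchd1 KO, and their part was not tested.

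**Figure D2:**
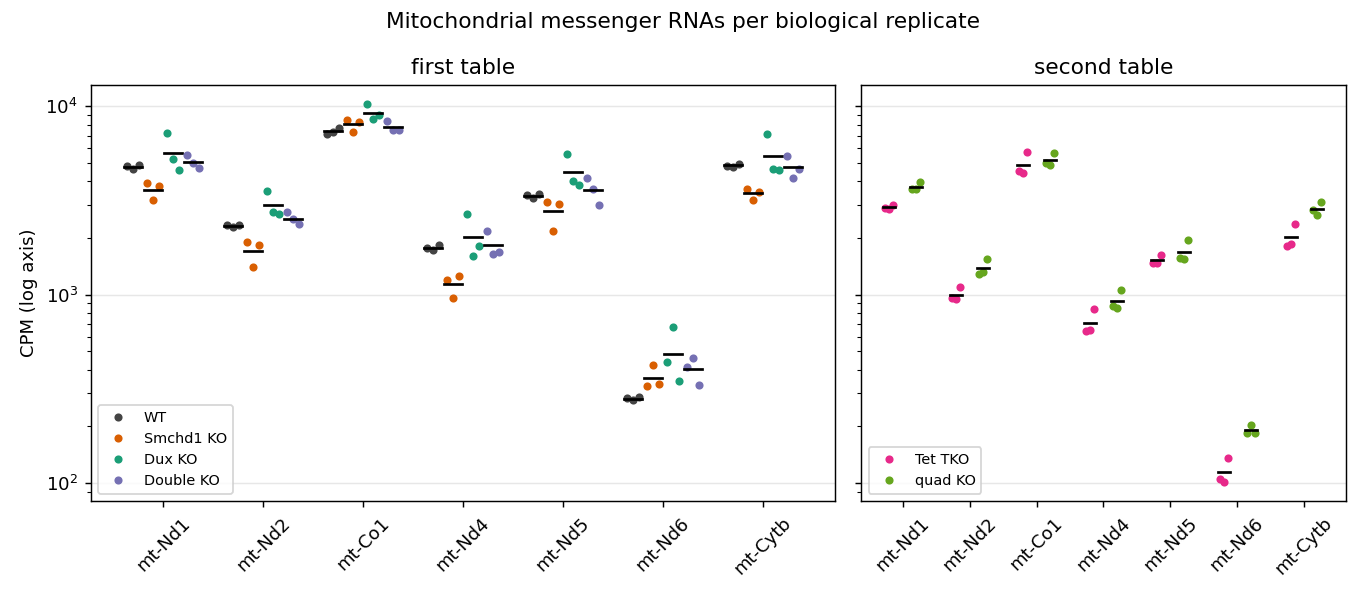
Level in CPM (log axis) of the 7 measured mitochondrial messenger RNAs in each biological replicate (points) with the mean of 3 (bar), by genotype, in the 2 separately scaled tables. In the first table mt-Cytb, mt-Nd1, mt-Nd2, mt-Nd4 and mt-Nd5 are lower in all Smchd1 KO samples than in all WT samples, and in the second mt-Nd6 is at 184 to 204 CPM in quad KO against 101 to 136 in Tet TKO.

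Ratios between members do not depend on the scaling of a library. For every 100 CPM of mt-Co1 there were 64.9, 65.6 and 67.7 CPM of mt-Cytb in WT and 42.6, 42.9 and 43.5 in Smchd1 KO. The ratio was 51.5, 54.5 and 68.8 in Dux KO and 55.4, 62.2 and 65.0 in Double KO. Smchd1 KO thus lay under all other samples of its table. In the second table the ratio was 40.3, 41.3 and 41.9 in Tet TKO and 54.5, 54.6 and 56.9 in quad KO, so there the samples without Smchd1 were higher.

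For mt-Nd5 per 100 CPM of mt-Co1 Tet TKO, at 28.5 to 33.2, and quad KO, at 31.4 to 34.5, overlapped. The same 2 directions as for mt-Cytb appeared for mt-Nd4. It stood at 23.7 to 24.7 CPM per 100 CPM of mt-Co1 in WT and at 13.2 to 15.2 in Smchd1 KO. It stood at 14.2 to 14.7 in the Tet TKO samples and at 17.4 to 18.7 in those of quad KO. For mt-Nd6, per 100 CPM of the other 6 measured messenger RNAs, the values were 1.14, 1.15 and 1.16 in WT, 1.48, 1.55 and 2.32 in Smchd1 KO, 1.201, 1.31 and 2.52 in Dux KO and 1.39, 1.46 and 1.90 in Double KO. All 9 knockout samples of the first table were above all WT samples in this ratio. Tet TKO had 0.825, 0.858 and 0.928, and quad KO had 1.07, 1.22 and 1.37, again without overlap. These ratios were chosen after their values were seen and are given with no test.

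**Figure D3:**
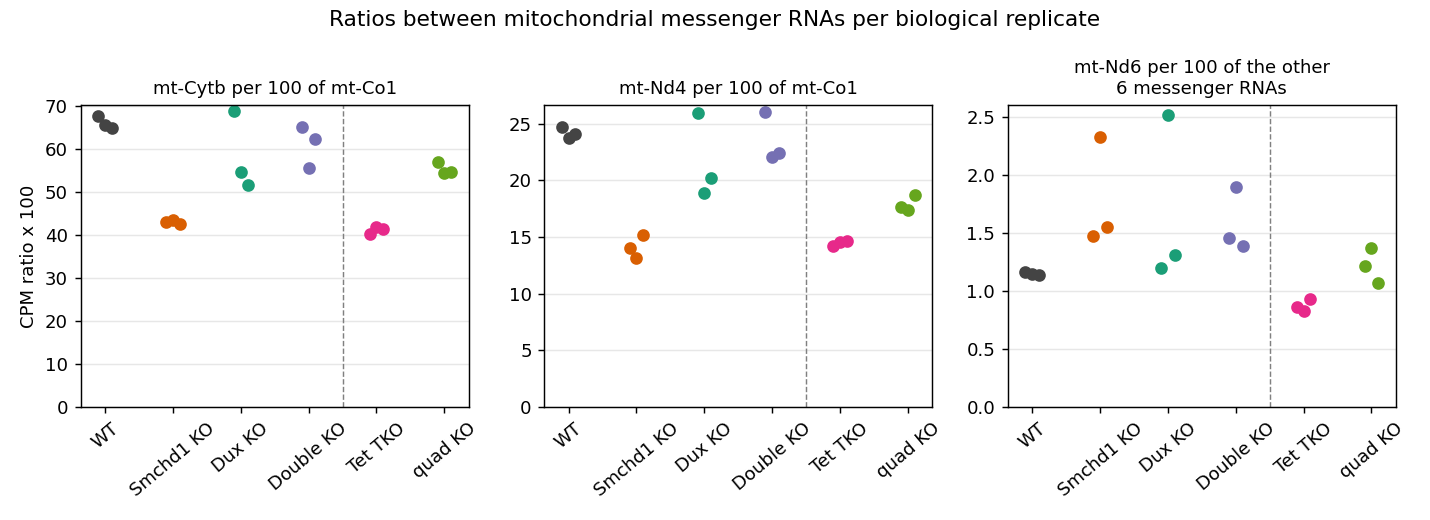
Ratios between mitochondrial messenger RNAs (CPM ratio times 100, axis from 0) in each biological replicate, by genotype; the dashed line separates the 2 tables. The ratio of mt-Cytb to mt-Co1 is 42.6 to 43.5 in Smchd1 KO and 64.9 to 67.7 in WT, while it is 54.5 to 56.9 in quad KO and 40.3 to 41.9 in Tet TKO.

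With Smchd1 lost in Tet TKO cells, 7 of the 16 members tested were called by limma and all 7 were higher in quad KO; 17.1% of all 14920 genes were called higher and 20.6% lower. They were both ribosomal RNAs and the messenger RNAs mt-Nd1, mt-Nd2, mt-Nd4, mt-Nd6 and mt-Cytb. The light-strand messenger RNA mt-Nd6 was 101, 105.5 and 136 CPM in Tet TKO and 184, 185 and 204 in quad KO. Its log2 change of 0.75 ± 0.11 (SE; limma adjusted p = 0.00151) exceeded that of any other messenger RNA.

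Cytochrome b (mt-Cytb) was 1819, 1865 and 2369 CPM in Tet TKO and 2657, 2830 and 3103 in quad KO. The groups did not overlap, and the log2 change was 0.51 ± 0.10 (limma adjusted p = 0.00657). The complex I subunit mt-Nd2 was 954, 959 and 1093 CPM and then 1281, 1322 and 1553, a log2 change of 0.47 ± 0.08 (limma adjusted p = 0.00375).

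For mt-Nd1 the levels were 2839, 2887 and 3007 CPM in Tet TKO and 3633, 3655 and 3964 in quad KO. Its replicates lay closest together, and its log2 change was 0.36 ± 0.04 (limma adjusted p = 0.000747), although only 0.06 (adjusted p = 0.382) after quantile normalization. The level of mt-Nd4 was 642, 648 and 843 CPM and then 849, 877 and 1064. Its log2 change was 0.39 ± 0.12 (limma adjusted p = 0.0365), and the call was lost without Tet TKO replicate 1 (adjusted p = 0.135), Tet TKO replicate 2 (0.131) or quad KO replicate 1 (0.0736), and with no filter on low values (0.0535).

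Among the measured messenger RNAs only mt-Co1 and mt-Nd5 were not called. The level of mt-Co1 was 4450, 4515 and 5739 CPM in Tet TKO and 4873, 4978 and 5684 in quad KO, a log2 change of 0.09 with a 95% confidence interval of -0.15 to 0.32. For mt-Nd5 it was 0.14, with an interval of -0.07 to 0.35. In 1 of the 3 Tet TKO samples, replicate 3, all 7 messenger RNAs were highest of the group. Of the 16 members, 8 were higher without overlap in quad KO, as were 25.1% of all genes.

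Other RNAs that are not from mitochondria moved in the same comparison. Of the abundant nuclear noncoding RNAs looked up, 4 were entries of the tables. All 4 rose in quad KO, where 17.1% of all genes were called higher, and also when any 1 sample was left out. Malat1, a nuclear speckle RNA, was 2347, 2365 and 2490 CPM in Tet TKO and 3504, 3862 and 4383 in quad KO, a log2 change of 0.70 (limma adjusted p = 0.000441). Neat1, the RNA scaffold of paraspeckles, had a log2 change of 0.47 (limma adjusted p = 0.00447). Their part in the change of the mitochondrial members was not tested. Of the ES cell markers 5 of 8 fell and 1 rose, with a median log2 change of -0.91 over the list. Nanog fell from a mean of 265 CPM in Tet TKO to 52.4 in quad KO (log2 change -2.40). Esrrb fell from 180 to 51.9 CPM (-1.92) and Klf4 from 129 to 38.8 (-1.74). The summed level was 2755 to 2874 CPM in quad KO and 3469 to 3596 in Tet TKO. Its highest marker was Tdgf1, with means of 1075 and 1170 CPM. Of 4 trophoblast markers tested 3 rose, and the list summed to 56.3 to 98.55 CPM against 35.6 to 39.6, with none of its 5 genes at 0 in either group. Of 7 fibroblast markers 4 rose and 1 fell (sums of 33.6 to 37.2 CPM against 26.3 to 27.1), and of 5 endoderm markers 2 rose and 2 fell (20.0 to 20.9 against 18.3 to 19.6). The part of these markers in the members' change was not tested either.

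**Figure D4:**
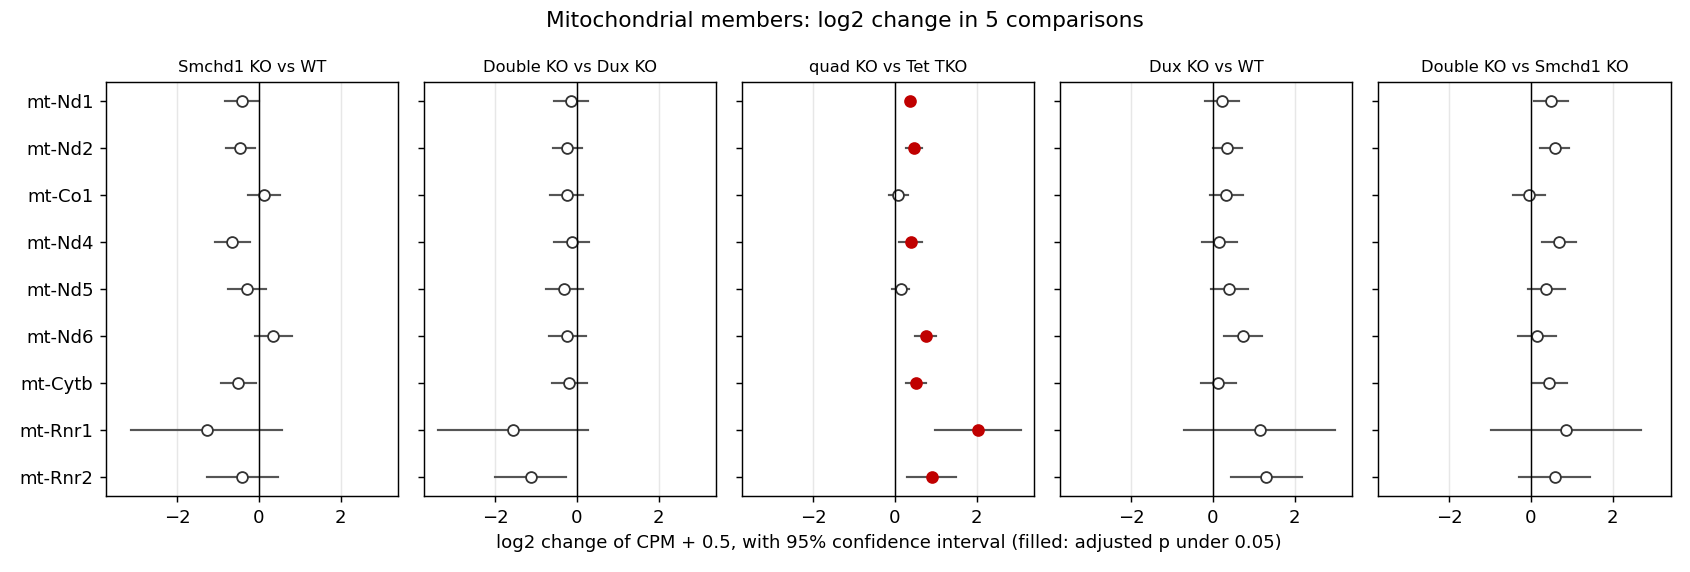
Log2 change of CPM + 0.5 for the 7 measured messenger RNAs and the 2 ribosomal RNAs in 5 comparisons, with the limma estimate (point), its 95% confidence interval (line) and the call (filled where the adjusted p was under 0.05). Only the comparison of quad KO with Tet TKO has called members, with mt-Rnr1 at 2.03 and mt-Nd6 at 0.75.

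With Dux lost, no member was called by limma (3.98% of all genes were), 2 were by edgeR (5.76%) and 6 by DESeq2 (16.1%). In limma 4 of 17 had an unadjusted p under 0.05, near the 26% of all genes. All 7 messenger RNAs had a positive log2 change against WT, from 0.14 to 0.73, except that mt-Cytb was at -0.061 after quantile normalization and mt-Nd4 at -0.020 with sample weights. The highest was again mt-Nd6, at 348, 437 and 676 CPM in Dux KO, above all WT samples. Its log2 change was 0.73 ± 0.21 (limma adjusted p = 0.0691). It was called in 6 of 28 fits, among them edgeR and DESeq2. The complex I subunits mt-Nd2 (2682, 2752 and 3541 CPM) and mt-Nd5 (3828, 4026 and 5590) and mt-Co1 (8552.5, 8959 and 10310) were also above all WT samples, so 4 of 7 messenger RNAs were, against 16.5% of all genes. Dux KO replicate 1 was the highest sample for 6 of the 7 messenger RNAs but not for mt-Nd6. Without it, the log2 changes of mt-Nd4 and mt-Cytb were -0.059 and -0.068.

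Malat1 was 8709, 9374 and 12010 CPM in Dux KO against 4368, 4557 and 4649 in WT, and Neat1 was 116, 256 and 338 against 74.9 to 80.8. Both were higher in every Dux KO sample, as the mitochondrial share was. Only Gas5, a noncoding host gene of small nucleolar RNAs, passed the test among the 4 noncoding RNAs (log2 change 0.87, limma adjusted p = 0.0437). Their part in the members' levels was not tested.

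With both Smchd1 and Dux lost, no member was called against WT by limma (1.57% of all genes were), edgeR (3.43%) or DESeq2 (12.4%). In limma 1 had an unadjusted p under 0.05, against 23.1% of all genes. That was mt-Nd6, at 333, 413 and 463 CPM, with a log2 change of 0.50 ± 0.21 (limma adjusted p = 0.181). The other 6 messenger RNAs lay between -0.04 and 0.13 on the log2 scale. Against Dux KO, no member was called by limma either, nor by edgeR or DESeq2 (0.0123% of all genes were called by limma), and 3 had an unadjusted p under 0.05 in limma (9.77% of all genes). All 7 messenger RNAs had a negative log2 change there, from -0.31 to -0.12, but mt-Nd1 was at 0.12 after quantile normalization and mt-Nd4 at 0.10 with sample weights. Without Dux KO replicate 1, mt-Nd1 was at 0.04, mt-Nd4 at 0.09 and mt-Cytb at 0.02, and without Dux KO replicate 2 mt-Nd6 was at 0.03. Of them, mt-Co1 alone had groups that did not overlap, at 7470 to 8346 CPM in Double KO against 8552.5 to 10310; 3.1% of all genes were lower in this way.

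Against Smchd1 KO, no member of Double KO was called by limma (4.38% of all genes were), 2 were by edgeR (5.54%) and 4 by DESeq2 (15.2%). In limma 5 of 17 had an unadjusted p under 0.05, near the 25.1% of all genes. The levels of mt-Nd1, mt-Nd2, mt-Nd4 and mt-Cytb were higher in all Double KO samples than in all Smchd1 KO samples, as were 13% of all genes. For mt-Nd4 they were 1647, 1686 and 2173 CPM in Double KO, a log2 change of 0.69 ± 0.20 (limma adjusted p = 0.0652), and it was called in 9 of 28 fits. For mt-Nd2 the log2 change was 0.58 ± 0.17 (limma adjusted p = 0.0659), and for mt-Cytb 0.45 ± 0.20 (0.180). The difference between the effect of Smchd1 loss in Dux KO cells and that in WT cells was tested by an interaction term, and no member was called by limma (0.512% of all genes were) or edgeR (0.0432%) and 1 was by DESeq2 (5.84%). In limma 2 had an unadjusted p under 0.05, against 17.4% of all genes. For mt-Nd4 this difference was 0.53 ± 0.28 (limma adjusted p = 0.345) and for mt-Nd1 0.27 ± 0.27 (0.628).

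The 2 ribosomal RNAs, mt-Rnr1 of the small and mt-Rnr2 of the large mitochondrial ribosome subunit, varied more than the messenger RNAs and did so between runs of 1 sample. In the deeper run of the 3 WT replicates mt-Rnr1 was 60.2, 82.2 and 100.2 CPM, and in the shallower run of the same replicates it was 991, 1070 and 1929. In Smchd1 KO it was 57.2, 64.7 and 70.1 CPM in the deeper and 226, 638 and 798 in the shallower run. The ratio of the shallower to the deeper run of a replicate was 2.46 to 19.25 for the ribosomal RNAs, 0.904 to 1.11 for the messenger RNAs and 0.744 to 2.45 for the transfer RNAs. The 2 runs of a replicate thus lay close together for the messenger RNAs, while each ribosomal RNA was higher in the shallower run of every replicate. One nuclear pseudogene also differed by run: Gm13340 was 0.944 to 1.56 CPM in the deeper and 4.34 to 5.47 in the shallower WT libraries.

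The libraries had been depleted of ribosomal RNA by RiboErase, and whether depletion differed between runs was not tested. Dux KO, with 1 run a sample, had mt-Rnr1 at 392, 1220 and 6901 CPM and mt-Rnr2 at 1631, 2414 and 5770. Double KO had 286, 386 and 1157 CPM for mt-Rnr1 and 1058, 1089 and 1882 for mt-Rnr2. The log2 change of mt-Rnr2 in Dux KO against WT was 1.31 ± 0.40 (limma adjusted p = 0.0790), and in Double KO against Dux KO it was -1.13 ± 0.40 (0.363). For Dux KO against WT, which sets 1 run against the mean of 2, mt-Rnr2 ran from 0.63 to 2.66 over the alternatives. The low end came with the shallower WT runs alone and the high end with the deeper WT runs alone. In the shallower WT runs mt-Rnr2 was 1594, 1602 and 2424 CPM, which overlaps Dux KO. In the same comparison mt-Rnr1 ran from 0.03 to 4.22. In Smchd1 KO against WT, mt-Rnr1 had a log2 change of -1.27 ± 0.85 (limma adjusted p = 0.477), and with matched runs the change was -0.31 with the deeper libraries alone (0.877) and -1.38 with the shallower ones alone (0.433), neither called. Setting the first WT run, the deeper one, against the mean of both Smchd1 KO runs gave 1.81.

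In the second table mt-Rnr1 rose from 9.90, 17.2 and 37.4 CPM in Tet TKO to 50.2, 85.5 and 108 in quad KO. Its log2 change of 2.03 ± 0.46 (limma adjusted p = 0.0106) exceeded that of every other member there. The level of mt-Rnr2 rose from 125, 137 and 226 CPM to 238, 262 and 410, a log2 change of 0.90 ± 0.26 (limma adjusted p = 0.0278). The mt-Rnr2 call was lost without Tet TKO replicate 1 (adjusted p = 0.108) or replicate 2 (0.101). All libraries of this table had 1 run, so the spread between runs seen in the first table could not be measured in it.

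**Figure D5:**
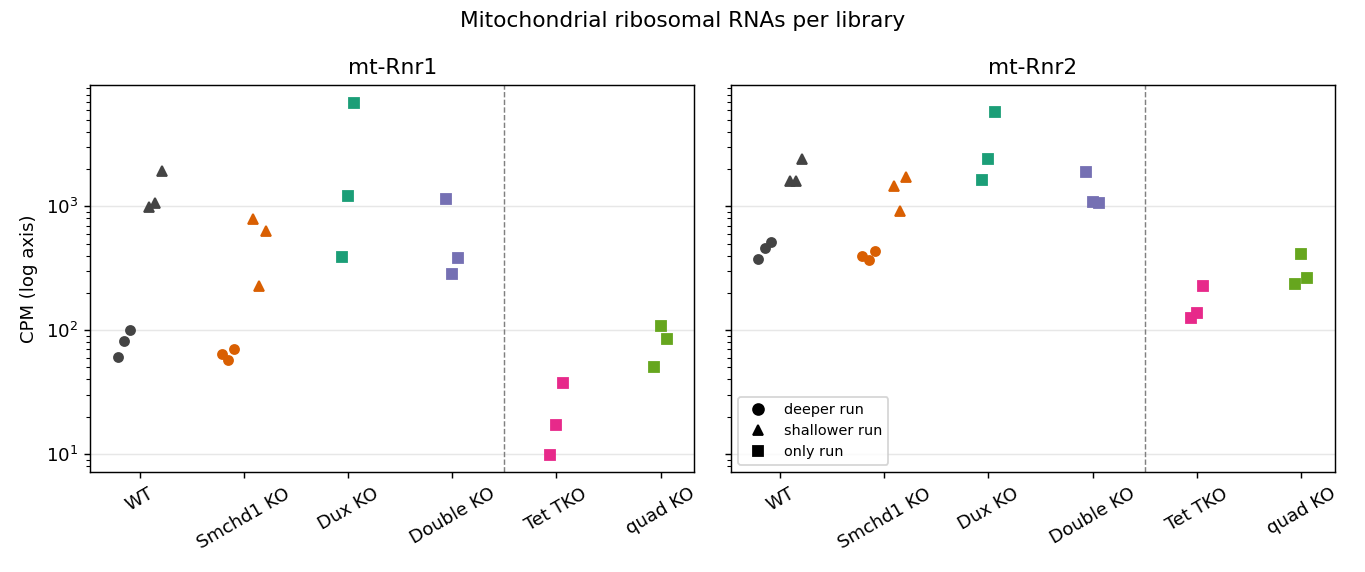
Level in CPM (log axis) of the 2 mitochondrial ribosomal RNAs in each library, by genotype, with the deeper run (circles), the shallower run (triangles) or the only run (squares) of a replicate; the dashed line separates the 2 tables. In WT, mt-Rnr1 is 60.2 to 100.2 CPM in the deeper runs and 991 to 1929 in the shallower runs.

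The transfer RNA genes were low throughout, at most 11.6 CPM as the mean of a replicate's runs. Of the 22 genes, 7 had no read in any library and 1 stayed under 0.1 CPM. Those that passed the filter in both tables were mt-Ti (isoleucine), mt-Tq (glutamine), mt-Tm (methionine), mt-Tw (tryptophan), mt-Ta (alanine), mt-Tt (threonine) and mt-Tp (proline), and mt-Te (glutamate) passed in the first alone. The sequences of mt-Ti and mt-Tq, neighbours on opposite strands, are shown because they overlap by 3 bases (capitals), and those of mt-Tt and mt-Tp because they are the highest and the one nearest to a call.
mt-Ti: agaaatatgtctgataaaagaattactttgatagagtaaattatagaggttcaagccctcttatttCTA
mt-Tq: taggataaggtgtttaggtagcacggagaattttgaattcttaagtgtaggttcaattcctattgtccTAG
mt-Tt: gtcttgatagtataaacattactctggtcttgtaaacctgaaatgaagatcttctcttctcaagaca
mt-Tp: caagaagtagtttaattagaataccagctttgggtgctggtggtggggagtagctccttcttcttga

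The threonine transfer RNA mt-Tt was 7.42, 7.49 and 8.79 CPM in WT, the highest of the class. Smchd1 KO had 5.94 to 6.998 CPM, Dux KO 5.84 to 8.50 and Double KO 6.13 to 11.6. The tryptophan transfer RNA mt-Tw was 5.07, 5.22 and 5.71 CPM in WT and 6.03, 8.56 and 8.58 in Smchd1 KO, with a log2 change of 0.48 ± 0.22 (limma adjusted p = 0.309). The isoleucine transfer RNA mt-Ti was 4.53 to 4.87 CPM in WT, 3.99, 7.88 and 8.18 in Smchd1 KO, 4.32, 7.42 and 9.31 in Dux KO and 3.40, 3.67 and 4.52 in Double KO. Its interaction term was -1.13 ± 0.42 (limma adjusted p = 0.203), and it was called in 2 of 27 fits.

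The proline transfer RNA mt-Tp, transcribed from the same strand as mt-Nd6, was 2.00, 2.49 and 3.04 CPM in Tet TKO and 3.11, 3.4996 and 3.91 in quad KO. Its log2 change was 0.42 ± 0.16 (limma adjusted p = 0.0656). In Dux KO it was 2.03, 2.98 and 4.395 CPM against 1.43 to 1.68 in WT, a log2 change of 0.75 ± 0.29 (limma adjusted p = 0.135). mt-Tp was called in 4 of 18 fits of quad KO against Tet TKO and in 3 of 28 fits of Dux KO against WT. No transfer RNA was called by limma as fitted here in any of the 7 comparisons. Under alternatives mt-Tm and mt-Te were called in 2 fits each of Dux KO against WT and mt-Tw in 2 of Smchd1 KO against WT, where mt-Ti and mt-Te were called in 1 fit each. mt-Ti was also called in 2 of 27 fits of the interaction. In quad KO against Tet TKO, mt-Ti (at -0.23) and mt-Tw were called in 1 fit each. The transfer RNA log2 changes in quad KO against Tet TKO ran from -0.12 to 0.42.

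The nuclear partners of the members were looked up as lists, each given by its counts. Of 75 nuclear subunits of the respiratory complexes tested, none was called in Smchd1 KO against WT, where 0.889% of all genes were. Their median log2 change was -0.03 (0.003 over all genes). In Dux KO 5 fell and none rose, and in Double KO 9 fell and none rose against WT, with medians of -0.31 and -0.49 (-0.03 and -0.04 over all genes, of which 2.35% and 0.889% were called lower). Uqcrq, a complex III subunit, had a log2 change of -0.84 in Dux KO (limma adjusted p = 0.0210) and -1.08 in Double KO (0.0101). In Double KO the ES cell markers summed to 2291 to 3625 CPM against 4086 to 4171 in WT, and Malat1 was 5387, 10875 and 12473 CPM. Of 6 fibroblast markers tested there, 1 rose and 5 were not called. It was Col3a1, a collagen gene with low levels (0.275 CPM in WT and 3.31 in Double KO, log2 change 2.26, limma adjusted p = 0.0183). The part of these markers and of Malat1 in the lists was not tested. In Double KO against Smchd1 KO 22 fell and none rose, with a median of -0.47; 2.98% of all genes were called lower there. Among them Ndufb4, of complex I, fell by 1.05 and Cox8a, of complex IV, fell by 0.91 on the log2 scale (limma adjusted p = 0.00445 and 0.00682). The fallen count depends on single samples: leaving out 1 sample gave 0 to 23 for Dux KO and 0 to 66 for Double KO against WT, the latter highest without Double KO replicate 3, and 0 to 58 for Double KO against Smchd1 KO, lowest without Smchd1 KO replicate 1 and highest without Double KO replicate 3.

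In quad KO against Tet TKO, 16 of the 75 subunits fell and 7 rose, with a median of -0.03; over all genes 20.6% were called lower and 17.1% higher, so the fallen share was near that of all genes. Ndufa1 and Ndufb11, of complex I, fell by 0.52 and 0.45 on the log2 scale (limma adjusted p = 0.000375 and 0.000559). Of 75 mitochondrial ribosomal proteins 15 fell and 4 rose there, again with a fallen share near that of all genes. In Dux KO against WT 7 fell and none rose (0 to 27 with 1 sample left out), where 2.35% of all genes were called lower. For quad KO, leaving out 1 sample gave 6 to 18 fallen and 1 to 14 risen subunits, and 6 to 28 fallen and 1 to 10 risen ribosomal proteins.

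The factors that copy mitochondrial DNA and make and process its RNA are given next. None of 13 replication and transcription factors was called in Smchd1 KO or Dux KO against WT, where 0.889% and 3.98% of all genes were. In quad KO 1 of the 13 fell, where 20.6% of all genes were called lower. It was Tfb1m, the methyltransferase of the small ribosomal RNA (16.3 CPM in Tet TKO and 11.1 in quad KO, log2 change -0.56, limma adjusted p = 0.0130). In Double KO against Smchd1 KO, where 4.38% of all genes were called, 1 rose, listed as Peo1, the mitochondrial helicase (log2 change 0.52, limma adjusted p = 0.0356). Of 25 RNA processing and stability factors 7 fell and 1 rose in quad KO, so that 8 of 25 were called, where 37.7% of all genes were. Hsd17b10, a subunit of mitochondrial RNase P, fell by 0.50 and Mrm1, a ribosomal RNA methyltransferase, fell by 0.49 on the log2 scale (limma adjusted p = 0.00394 and 0.00526). Of 17 mitochondrial aminoacyl-tRNA synthetases 4 fell and 1 rose in quad KO (20.6% of all genes were called lower). None was called in Smchd1 KO, Dux KO or Double KO against WT, where 0.889%, 3.98% and 1.57% of all genes were.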

How the data were processed

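RNA-seq of total RNA was deposited as 2 gene tables. Per the submitters' processing notes, reads were trimmed with Trim Galore and aligned with STAR 2.5.1 to mm9, and limma 3.38.2 was used. The read counter and annotation are not given in the sources used here. The authors deposited a normalized signal, CPM of an effective library size. Whole reads were recovered, with 100% of values under 200 reads within 0.1 read of a whole number. Technical runs were averaged. For Smchd1 KO, whose column names give no replicate, runs were joined by counting noise. The noise ratio, the median squared difference over that of counting, was 1.37 to 1.60 within and 3.52 to 15.65 between pairs. In WT, where the labels give the replicate, it was 1.43 to 1.58 between runs of 1 replicate and 1.30 to 1.98 between replicates. WT replicates thus differed about as little as runs of 1 replicate, and their independence was not tested. A further 3 columns map to no sample and were not used, so the planned comparisons of Tet TKO and quad KO with WT were not made. The limma test (version 3.58.1, R 4.3.3) ran on log2(CPM + 0.5) with a mean-variance trend, on genes with 0.5 CPM in at least 3 samples. On simulated data it was checked for recovery of known changes. That simulation gave all genotypes the same dispersion, so it does not cover the unequal spread of these samples (median SD on the log2 scale over all genes of 0.048 in WT and 0.301 in Dux KO). edgeR 4.0.16 and DESeq2 1.42.0 on the recovered reads, other pseudocounts, filters and scalings, single runs, a replicate block and leaving out each sample were alternatives. All members are named, with per list up to 3 called genes of largest change. Members and lists were chosen with earlier results of these data known.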

Additional observations from a re-analysis of the deposited data

Results flagged for a closer look

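In 5 members, with runs averaged, every sample without Smchd1 moved one way in WT cells and the opposite way in Tet TKO cells. Of all genes, 29.6% were lower without overlap in Smchd1 KO and 25.1% were higher without overlap in quad KO. The share of genes that did both was not counted. For mt-Nd1, Smchd1 KO against WT gave a log2 change of -0.41 and quad KO against Tet TKO gave 0.36. For mt-Nd2 the values were -0.45 and 0.47, and for mt-Nd4 they were -0.65 and 0.39. For mt-Cytb they were -0.50 and 0.51, and for mt-Rnr1 -1.27 and 2.03. In the deeper runs alone mt-Rnr1 overlapped, at 60.2 to 100.2 CPM in WT and 57.2 to 70.1 in Smchd1 KO. None of the 5 was called by limma in Smchd1 KO against WT, and all 5 were called in quad KO against Tet TKO. The difference between the backgrounds was not tested, because the tables were normalized separately.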

How the results depend on the processing

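The count of called members was 0 in the 6 comparisons of the first table, and in Double KO against Dux KO it was 0 under every alternative. Shares of all genes called are in parentheses. In Smchd1 KO against WT it was 1 with DESeq2 (6.68%), 10 with quality weights (57.4%) and 7 with only the genotypes compared (42.3%). In Dux KO against WT it was 2 with edgeR (5.76%), 6 with DESeq2 (16.1%), 4 with quality weights (39.7%), 2 with WT run 1 alone (5.71%) and 3 with the deeper library of each replicate alone (5.67%), a setting chosen after seeing the data. In Double KO against WT it was 1 with quality weights (15.1%) and 1 with the deeper libraries (3.14%). In Double KO against Smchd1 KO it was 1 with quantile normalization (5.14%), 1 with CPM of nuclear gene reads (4.25%), 2 with edgeR (5.54%), 4 with DESeq2 (15.2%), 1 with quality weights (16.5%) and 2 with the deeper libraries (5.29%). For the interaction it was 1 with DESeq2 (5.84%) and 2 with quality weights (13.8%). WT run 1 alone and the deeper libraries leave out shallower runs, in which each ribosomal RNA was higher. Leaving out 1 sample gave 0 to 3 members in Dux KO against WT, with 3 without Dux KO replicate 3 (2797 of 16117 genes). In Double KO against Smchd1 KO the range was 0 to 2, with 2 for example without Double KO replicate 3 (2422 of 16114 genes). In the other 4 comparisons of the first table it was 0. In quad KO against Tet TKO it ran from 5, as without Tet TKO replicate 1 (3423 of 14644 genes), to 8, without Tet TKO replicate 3 (3512 of 14655). With a replicate block, 1 member was called in Dux KO against WT (667 of 16200 genes) and 1 in Double KO against Smchd1 KO (669 of 16200). In quad KO against Tet TKO that fit called 8 members (4913 of 14920 genes). Deviations of same-numbered samples correlated at -0.42 to 0.47 over 18 pairs of the first table, and at -0.37 to 0.49 over 36 differently numbered pairs. The Smchd1 KO numbers came from the joining of runs and not from a label. Leaving that genotype out, the ranges were -0.13 to 0.47 and -0.37 to 0.20. Whether same-numbered samples were handled together is not given in the sources used here, and the replicate block uses the same numbers.

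The sign turned for mt-Rnr1 (1.81) and mt-Rnr2 (0.94) in Smchd1 KO against WT with WT run 1 alone, which sets the deeper WT runs against the mean of both Smchd1 KO runs; with the deeper libraries alone on both sides they were at -0.31 and -0.16. In Dux KO against WT it turned for mt-Nd4 with quality weights (-0.020) and without Dux KO replicate 1 (-0.059, with a range of -0.059 to 0.31 over the left-out samples), and for mt-Cytb with quantile normalization (-0.061) and without Dux KO replicate 1 (-0.068, range -0.068 to 0.24). The cause of the turns in Dux KO was not tested. Over 40 of the 118 pairs of a member and a comparison, those tallied, 908 other alternative values kept sign and call, 58 gained a call and 7 lost one. The second table's comparisons with WT were not run. For the limit that depth sets, 3 reads over a genotype correspond to 0.0145 CPM in WT and 0.0694 in Dux KO, for counting error only.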
